A study of Mus musculus with 30 samples.

Results

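Integrins are receptors for the extracellular matrix, and laminins are matrix proteins that many of them bind. The genes described here were all those whose symbol begins with Itga or Itgb, apart from the Itgb1bp and Itgb3bp genes, together with Lama, Lamb and Lamc genes that carry a number. By this rule 36 genes, with 77 probe sets, were found among the 18193 genes that a single-gene probe set named on the A and B chips. They comprised 16 integrin alpha genes, 10 genes of the Itgb group and 10 laminin genes. The Itgb group includes Itgbl1, which encodes an integrin-like protein and not a receptor subunit. Each gene was read from 1 probe set, the brightest one, on the A chip where one of its probe sets passed the filter on dim signals there. Other genes were read from the B chip where a probe set passed there. Genes that passed on neither chip were read from the A chip first, even where a B chip probe set was brighter. Of the 36 genes, 20 passed that filter and were tested: 9 integrin alpha genes, 5 Itgb genes and 6 laminins, among 12446 tested genes in all. For Itga4, Itga8 and Itgb2l this meant a probe set on the B chip, since their A chip probe sets were too dim.

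The arrays came from mouse cell cultures labelled as leg muscle, with total RNA at 0, 4, 12, 24 and 48 h and 3 replicates of each hour hybridised to both chips, 30 arrays in all. The labels give no strain, age, medium, agent or event that sets 0 h, and do not say whether the replicates were separate cultures, so the p-values reflect only how these arrays spread, and part of that spread may be technical. Values are scaled Affymetrix intensities, and the changes are on a log2 scale after addition of a small constant (29 on A, 54 on B), which understates changes of dim genes. Differences from 0 h were tested with limma over all 15 arrays of a chip, with Benjamini-Hochberg adjustment over all tested probe sets of that chip, and a gene was called at an adjusted p under 0.05.

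Integrins are dimers of an alpha and a beta chain. The beta1 chain pairs with several alpha chains: with alpha7 and alpha6 it forms laminin receptors, with alpha5 and alpha4 receptors for fibronectin, and alpha4 beta1 also binds the cell adhesion molecule VCAM1. Laminins are trimers of an alpha, a beta and a gamma chain. The laminin of the basement membrane around adult muscle fibres contains the alpha2, beta1 and gamma1 chains, and alpha7 beta1 integrin is its main integrin receptor there. Loss of Lama2 or Itga7 causes muscular dystrophy or myopathy in mice and humans. In cultured muscle cells, integrins take part in the attachment, fusion and matrix assembly of myoblasts.

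All 11 muscle markers examined were above the filter, among them the muscle regulator Myog, desmin (Des) and the embryonic myosin Myh3. None of 6 fibroblast markers and none of 3 platelet markers with a probe set was above it, whereas 3 of 11 leukocyte, 3 of 8 endothelial, 2 of 4 Schwann cell, 4 of 6 pericyte and smooth muscle and 3 of 6 epithelial markers were. The arrays of replicate 3 stood apart from the other replicates at every hour on both chips. Their deviations from the hour means correlated at 0.475 to 0.726 with each other on A and at 0.227 to 0.432 on B. Between replicates 1 and 2, at different hours, the range was 0.0616 to 0.491 on A and 0.00705 to 0.317 on B. With replicates 1 and 2 those of replicate 3 correlated at -0.61 to -0.271 on A and at -0.364 to -0.0713 on B. Negative values there are no separate evidence, since the deviations of the 3 arrays of an hour sum to 0. For this reason 2 further fits are given beside the main one where they change a call. The first has replicate 3 as a batch term, and the other uses replicates 1 and 2 alone. The labels do not say what sets replicate 3 apart.

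Promoter windows from RefSeq (build GRCm38.p6, 250 bases before to 50 after the start of a gene) were available for 24 of the 36 genes. They were searched for the E-box CANNTG, the letters bound by MyoD, myogenin and other basic helix-loop-helix factors, which reads the same on both strands. At least 1 E-box stood in 23 of the 27 member windows (85.2%), against 72.3% of all 32851 windows. A match says only that these letters are present. The 3 windows below are those of Itga4, Lamb1 and Itgb5. Itga4 and Lamb1 were the members with an available window that were called in the main fit or with the batch term. Itgb5 was picked from several members with a window whose arrays were ordered by replicate number. Capitals mark the E-boxes. Itga4 lies at chr2:79255176-79255475 on the plus strand, Lamb1 at chr12:31265043-31265342 on the plus strand, and Itgb5 at chr16:33829415-33829714 on the plus strand.
Itga4: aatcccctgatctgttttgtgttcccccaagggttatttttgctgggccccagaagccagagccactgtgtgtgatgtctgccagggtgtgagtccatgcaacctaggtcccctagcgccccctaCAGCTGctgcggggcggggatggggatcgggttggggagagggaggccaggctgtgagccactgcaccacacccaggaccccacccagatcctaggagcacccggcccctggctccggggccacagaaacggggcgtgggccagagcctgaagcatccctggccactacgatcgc
Lamb1: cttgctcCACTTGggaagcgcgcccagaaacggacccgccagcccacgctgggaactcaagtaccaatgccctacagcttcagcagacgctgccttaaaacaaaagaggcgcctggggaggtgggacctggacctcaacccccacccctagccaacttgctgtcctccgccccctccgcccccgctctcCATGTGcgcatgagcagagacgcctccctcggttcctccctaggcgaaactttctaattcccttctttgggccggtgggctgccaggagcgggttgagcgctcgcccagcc
Itgb5: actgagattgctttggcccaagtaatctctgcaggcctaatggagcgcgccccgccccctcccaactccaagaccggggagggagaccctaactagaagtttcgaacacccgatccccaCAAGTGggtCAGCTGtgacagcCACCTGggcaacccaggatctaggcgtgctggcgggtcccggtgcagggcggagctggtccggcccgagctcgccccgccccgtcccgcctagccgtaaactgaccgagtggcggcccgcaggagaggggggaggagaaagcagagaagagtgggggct
The Itga4 window held 1 E-box, the Lamb1 window 2 and the Itgb5 window 3. Other members ordered by replicate number had fewer than Itgb5: 1 and 1 in the windows of Itga3, 0 in Itgav, 2 in Lama5 and 1 in Lama2. Windows with 3 or more made up 17.6% of the whole table.

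Across the hours, the change that passed the main test in this family was in Itga4 at 48 h. No member was called at 4 h or 12 h against 0 h (0% of all tested genes in either direction), and none at 24 h (1.58% of all tested genes higher and 0.940% lower). At 48 h, 1 of 20 was called higher (1.29% of all tested genes) and none lower (0.747%). The F test over all hours called none of the 20 (2.00% of all tested genes). At an unadjusted p under 0.05 limma found 0, 1, 4 and 5 of the 20 members at 4, 12, 24 and 48 h, against 4.45%, 6.77%, 16.0% and 14.4% of all tested genes, and 4 members in the F test, against 13.5%. With replicate 3 as a batch term no member was called at 4 h (0% of all tested genes) or 12 h (0.482% higher, 0.442% lower). In that fit Itga7 rose at 24 h (5.30% of all tested genes higher, 6.0% lower), and Itga4, Itga6 and Lamb1 rose at 48 h (4.08% higher, 4.82% lower). Those 4 genes were also called by its F test (12.5% of all tested genes). In replicates 1 and 2 alone no member was called at 4 h (0.0723% of all tested genes higher, 0.0562% lower) or 12 h (1.67% higher, 1.66% lower). There Itga6 and Itga7 rose at 24 h (6.01% of all tested genes) and Lama5 fell (7.17%). At 48 h Itga4 and Itga6 rose (5.29%) and none fell (6.42%), and the F test called Itga4, Itga6, Itga7, Itgb6 and Lamb1 (15.8%). At an unadjusted p under 0.05 the batch fit found 1, 2, 5 and 8 members at 4, 12, 24 and 48 h, against 9.21%, 14.5%, 25.9% and 23.2% of all tested genes. Replicates 1 and 2 alone gave 1, 2, 5 and 6, against 9.45%, 17.0%, 26.8% and 24.6%. Several of these shares are close to the background, so the counts say little about the family as a whole. The median log2 difference from 0 h of the 20 tested members was 0.04, 0.09, 0.13 and 0.22 at 4, 12, 24 and 48 h, against -0.03, -0.01, -0.05 and -0.03 over all tested genes. At 48 h the estimate was above 0 for 17 of 20 members, against 5710 of 12446 tested genes. In replicates 1 and 2 alone it was above 0 for 14 of 20 members, against 5937 of 12446 tested genes.

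**Figure D1:**
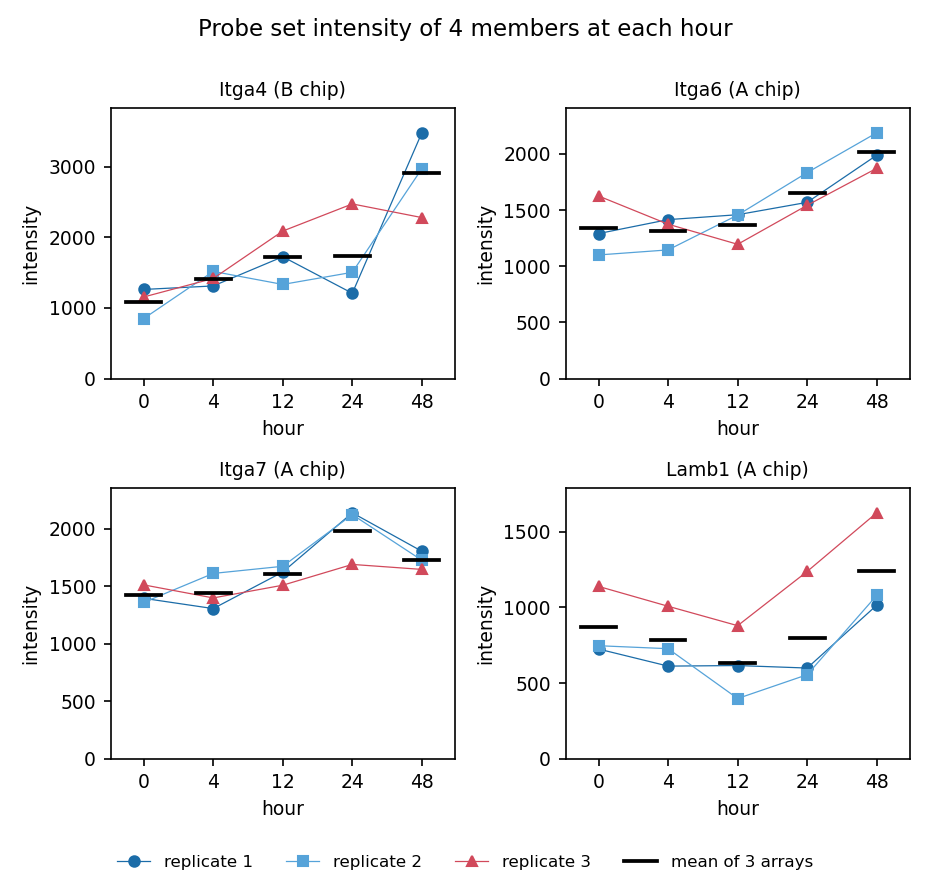
Scaled intensity (linear axis from 0) of Itga4, Itga6, Itga7 and Lamb1 against hour, with 1 point per array, thin lines joining arrays of the same replicate number and black bars for the mean of the 3 arrays. Itga4 averages 2908 at 48 h against 1088 at 0 h, Itga7 is highest at 24 h (mean 1985), and replicate 3 of Lamb1 stands above the other replicates at each hour.

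Itga4, the alpha chain of the VCAM1 and fibronectin receptor alpha4 beta1, gave the one call of the main fit. In replicates 1, 2 and 3 its intensity was 1261, 849 and 1154 at 0 h, 1310.4, 1516 and 1416 at 4 h, 1724, 1332 and 2087 at 12 h, 1207, 1503 and 2471 at 24 h and 3478, 2969 and 2278 at 48 h. All 3 arrays of 48 h lay above all 3 of 0 h, and the 12 h and 4 h arrays also lay above those of 0 h, while the 24 h arrays overlapped with them. The mean was 2908 ± 602 at 48 h and 1088 ± 214 at 0 h (SD, n = 3 each), a log2 difference of 1.37 (SE 0.25, adjusted p = 0.0173 in limma). It was called in the fit with the batch term (adjusted p = 0.0025) and in replicates 1 and 2 alone (adjusted p = 0.00125). The call rests on few arrays: the adjusted p was 0.0572 and 0.0963 without replicate 1 or 2 of 0 h, 0.0834 and 0.0893 without replicate 1 or 2 of 48 h, and 0.0535 with the 6 arrays of both hours alone. Within replicates 1, 2 and 3 the log2 difference at 48 h was 1.43, 1.74 and 0.95.

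A further B chip probe set of Itga4 was likewise called higher at 48 h, at 1328 ± 482 at 48 h and 337 ± 18.1 at 0 h (SD, n = 3 each), a log2 difference of 1.75 (adjusted p = 0.0236 in limma). At 4, 12 and 24 h it gave -0.28, -0.17 and 0.03, against 0.38, 0.63 and 0.60 for the probe set used, so the earlier differences were not shared. The A chip probe sets were below the filter, with means of 122 at 48 h and 43.2 at 0 h in the brightest. Itga4 is also made by leukocytes. The leukocyte marker Ptprc averaged 22.6 ± 16.2 at 48 h and 15.1 ± 11.2 at 0 h (SD, n = 3 each), below the filter throughout. The summed A chip level of the 11 leukocyte markers was 721 to 1040 at 48 h and 625 to 901 at 0 h, which overlap, and none of the 3 tested ones was called. In such bulk RNA, more cells of a type and more RNA per cell cannot be told apart. Vcam1, a ligand of alpha4 beta1, was 848 ± 482 at 48 h and 880 ± 265 at 0 h (SD, n = 3 each), with no call at 48 h.

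Itga6 and Itga7, the alpha chains of laminin receptors, were both higher late in the series, but their calls depended on how replicate 3 was treated. Itga6 read 1291, 1100.5 and 1625 at 0 h, 1415, 1146 and 1374 at 4 h, 1459, 1456 and 1195 at 12 h, 1569, 1834 and 1543 at 24 h and 1989, 2188 and 1872 at 48 h. The 48 h arrays all lay above those of 0 h, and also above every array of 4, 12 and 24 h. Its mean was 2016 ± 160.0 at 48 h and 1339 ± 266 at 0 h (SD, n = 3 each), a log2 difference of 0.60 (SE 0.15). The adjusted p was 0.0653 in the main limma fit, 0.0164 with the batch term and 0.00353 in replicates 1 and 2 alone. At 24 h Itga6 was called in replicates 1 and 2 alone (log2 difference 0.50, adjusted p = 0.0379). The other tested probe set of Itga6 had a log2 difference of 0.58 at 48 h, with an adjusted p of 0.231 in the main fit and 0.0966 with the batch term.

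Itga7 read 1395, 1360.0 and 1512 at 0 h, 1306, 1612 and 1399 at 4 h, 1625, 1674 and 1509.6 at 12 h, 2140.1, 2124 and 1691 at 24 h and 1805, 1727 and 1647 at 48 h. All arrays of 24 h and of 48 h lay above those of 0 h, and the 24 h arrays of replicates 1 and 2 were the highest of the series. The mean was 1985 ± 255 at 24 h and 1423 ± 79.8 at 0 h (SD, n = 3 each), a log2 difference of 0.47 (SE 0.13). The adjusted p was 0.0701 in the main limma fit, 0.0136 with the batch term and 0.00611 in replicates 1 and 2 alone. At 48 h the log2 difference was 0.27, with an adjusted p of 0.327 in the main fit and 0.151 with the batch term. Within replicates 1, 2 and 3 the 24 h difference was 0.61, 0.63 and 0.16, so the arrays of replicate 3 showed the smallest one. Itga7 is represented by 1 probe set on these chips. Among markers of other cell types, Erbb3, listed for Schwann cells, was higher at 24 h and 48 h in the main limma fit (adjusted p = 0.0042 and 0.0261), at 699 ± 156 at 0 h, 2048 ± 427 at 24 h and 1522 ± 431 at 48 h (SD, n = 3 each). The summed level of the 4 Schwann cell markers was 751 to 1124 at 0 h, 1801 to 2610 at 24 h and 1224 to 2140 at 48 h, of which Erbb3 made up most. Sox10 averaged 187 at 24 h and 139 at 0 h and was not called, and S100b and Mbp were below the filter. The smooth muscle marker Tagln was higher at 24 h in the main limma fit, at 4082 ± 229 against 2225 ± 160.1 at 0 h (SD, n = 3 each, adjusted p = 0.0108). From the same list, Rgs5 was not called in that fit. Rgs5 was called lower at 24 h and 48 h with the batch term and in replicates 1 and 2 alone. The summed level of the 6 pericyte and smooth muscle markers was 12987 to 18571 at 0 h, 18211 to 18576 at 24 h and 10039 to 13495 at 48 h. Myh11 and Pdgfrb were below the filter. The part of these cell types in the integrin values was not tested.

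The remaining tested alpha genes were not called in any comparison by these 3 fits. Itgav, the alpha chain of vitronectin receptors, read 2038, 1756 and 2716 at 0 h, 2113, 1928 and 2511 at 4 h, 1711, 1503 and 2471 at 12 h, 1751, 1969 and 3131 at 24 h and 2015, 2615 and 3411 at 48 h. Replicate 3 was the highest array at each hour, and the hours overlapped. Itga5, which pairs with beta1 as the classical fibronectin receptor, read 316, 299.6 and 344 at 0 h, 329, 416 and 325 at 4 h, 287, 320.5 and 464 at 12 h, 274, 333 and 469 at 24 h and 279, 270.5 and 512 at 48 h. Its hour means stayed between 320.1 and 359, and its log2 difference at 48 h was 0.08 (SE 0.25). Itga3, another laminin receptor chain, read 563, 552 and 1177 at 0 h, 606, 634 and 1076 at 4 h, 488, 522 and 1390.3 at 12 h, 450.4, 507 and 1381 at 24 h and 623, 594 and 1492 at 48 h. Its arrays fell by replicate and not by hour, with replicate 3 above replicates 1 and 2 throughout. Itga10, a collagen receptor chain, averaged 414 ± 56.5 at 48 h and 286 ± 31.9 at 0 h (SD, n = 3 each), with no overlap between these hours and an adjusted p of 0.306. Itga8 and the platelet chain Itga2b ranged from 172 to 488 and from 231 to 327, and their hour groups overlapped at 48 h.

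Among the beta chains, Itgb1, the common partner of the alpha4, alpha5, alpha6 and alpha7 chains, read 3542, 2565 and 2945 at 0 h, 4086, 2428 and 3254 at 4 h, 3473, 3808 and 3560.1 at 12 h, 3513, 3836 and 3845 at 24 h and 3872, 3748 and 4115 at 48 h. The 48 h arrays all lay above those of 0 h, by a smaller step than for Itga4. The log2 difference at 48 h was 0.38 (SE 0.16), with an adjusted p of 0.277 in the main limma fit and 0.134 with the batch term. Its other probe sets did not all give the same answer. One read 2836 ± 32.6 at 24 h and 2193 ± 405 at 0 h (SD, n = 3 each), a log2 difference of 0.38 that was called with the batch term (adjusted p = 0.0453) and not without it (0.126). A dimmer one, whose design name ends in x and which may therefore cross-hybridise, read 427 ± 52.3 at 24 h and 193 ± 61.8 at 0 h (SD, n = 3 each). That probe set had a log2 difference of 1.07 (adjusted p = 0.0616 in the main fit and 0.0145 with the batch term) and passed the main F test over all hours (adjusted p = 0.0446). These Itgb1 probe sets were chosen for mention after their values were seen.

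Itgb5, a partner of alphav, read 723, 679.6 and 1192 at 0 h, 571, 702 and 1059.6 at 4 h, 731, 772 and 1398 at 12 h, 581, 576 and 1501 at 24 h and 666, 530.3 and 1213 at 48 h. Replicate 3 lay above the others at each hour, and the log2 difference at 48 h was -0.14 (SE 0.40). Itgb8, another partner of alphav, read 1443, 1704 and 1545 at 0 h, 2801, 1616 and 1403 at 4 h, 1261, 1773 and 527 at 12 h, 1108, 656 and 532 at 24 h and 1881, 879.5 and 1162 at 48 h. All 24 h arrays lay below those of 0 h, with means of 765 ± 303 and 1564 ± 131 (SD, n = 3 each), but the adjusted p was 0.307 in the main fit and 0.0841 with the batch term. Itgb6, an epithelial partner of alphav, averaged 496 ± 132 at 24 h and 322 ± 40.4 at 0 h (SD, n = 3 each), with an adjusted p of 0.421. In replicates 1 and 2 alone Itgb6 was called by the F test over all hours (adjusted p = 0.0417). Itgb2l spanned 114 to 768, and its lowest array was replicate 2 of 48 h. Its log2 difference was 0.594 at 12 h and 0.452 at 24 h. The other tested B chip probe set of Itgb2l gave -0.295 and 0.136, and its arrays of these hours overlapped with those of 0 h.

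Lamb1, the laminin beta1 chain, was the laminin called with replicate 3 as a batch term, and not called in the main fit. It read 725, 747 and 1139 at 0 h, 612, 727 and 1008 at 4 h, 616, 397 and 879 at 12 h, 599, 555 and 1238 at 24 h and 1015, 1079.5 and 1626 at 48 h. Replicate 3 was the highest at each hour, the 48 h and 0 h arrays overlapped, and within each replicate number the 48 h array was above the 0 h array by 0.47, 0.52 and 0.50 on the log2 scale. The mean was 1240.0 ± 336 at 48 h and 870.1 ± 233 at 0 h (SD, n = 3 each), a log2 difference of 0.50 (SE 0.33). The adjusted p was 0.538 in the main limma fit and 0.0488 with the batch term, and 0.112 in replicates 1 and 2 alone. At 12 h the log2 difference was -0.48, with an adjusted p of 0.847 in the main fit and 0.126 with the batch term. Another tested Lamb1 probe set had a log2 difference of 0.71 at 48 h (adjusted p = 0.365 in the main fit and 0.0153 with the batch term). The third had a difference of 0.64 (adjusted p = 0.544 and 0.356). For the probe set used, the main fit gave 0.29 without replicate 3 of 48 h and 0.70 without replicate 3 of 0 h. Replicates 1 and 2 alone gave 0.49.

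The partners of Lamb1 in the muscle laminin did not share a called change. Lama2, the alpha2 chain of the muscle basement membrane, read 276, 271 and 153 at 0 h, 413, 475 and 193 at 4 h, 355, 356 and 196 at 12 h, 314, 255 and 212 at 24 h and 356, 638 and 200.2 at 48 h. Replicate 3 was the lowest array at each hour. Its log2 difference at 48 h was 0.61 (SE 0.38), with an adjusted p of 0.506 in the main limma fit and 0.063 with the batch term. In replicates 1 and 2 alone the difference was 0.745 (adjusted p = 0.051 in limma). Lama2 thus missed the threshold narrowly in both further fits, and its difference at 48 h was larger than that of Lamb1. Lamc1, the gamma1 chain, read 377, 393 and 720.5 at 0 h, 408, 367 and 647 at 4 h, 485, 432 and 741 at 12 h, 351, 440.0 and 931 at 24 h and 374, 477 and 1015 at 48 h. Replicate 3 was the highest at each hour, and the log2 difference at 48 h was 0.24 (SE 0.40, adjusted p = 0.845).

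Lama5, the alpha chain of laminins that are abundant in embryonic basement membranes, read 538, 501 and 807 at 0 h, 421, 560.4 and 666 at 4 h, 437, 492 and 744 at 12 h, 354, 334 and 859 at 24 h and 518, 512 and 1004 at 48 h. In replicates 1 and 2 alone it fell at 24 h, with a log2 difference of -0.56 (adjusted p = 0.0384 in limma), while its replicate 3 array at 24 h was above that at 0 h. With all 3 replicates the difference was -0.34, with an adjusted p of 0.688 in the main fit and 0.184 with the batch term. Lamb2, the beta2 chain found at the neuromuscular junction, read 110.3, 147 and 111 at 0 h, 150.3, 217 and 90.9 at 4 h, 93.4, 145 and 95.2 at 12 h, 142, 144 and 81.5 at 24 h and 124, 126 and 116 at 48 h. Its hours overlapped, and the log2 difference at 48 h was 0 (SE 0.26). Lamb3, a chain of epithelial laminin, ranged from 81.6 to 196, and none of its comparisons was called.

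**Figure D2:**
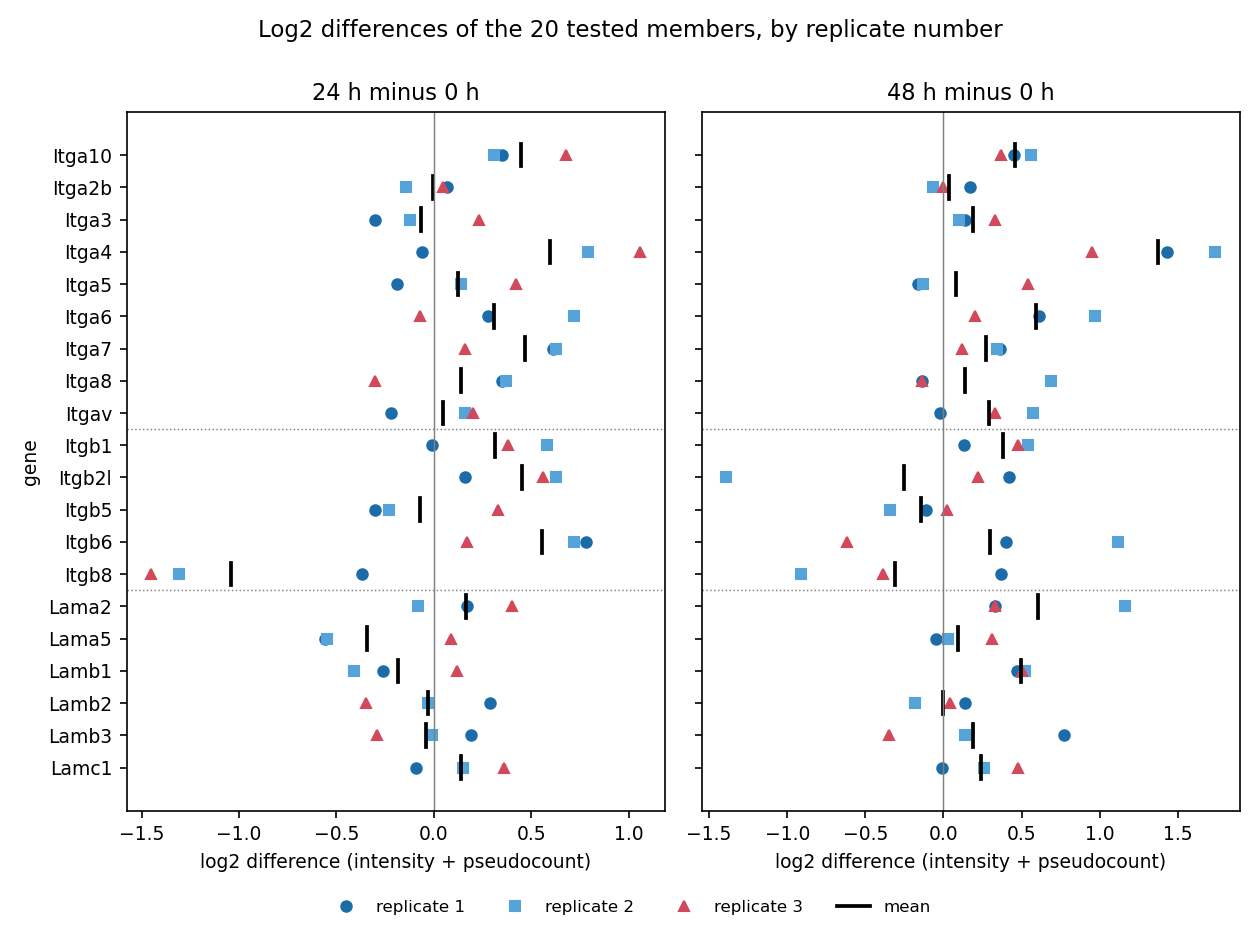
Log2 difference from 0 h of the 20 tested members at 24 h and 48 h, with 1 point for each replicate number and a black bar for their mean, and dotted lines between alpha chains, beta chains and laminins. Itga4 at 48 h has the highest mean (1.37), and its 3 points lie at 0.95, 1.43 and 1.74.

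As a description that uses no model, the 3 arrays of 48 h all lay above the 3 of 0 h for 5 of 20 members (Itga4, Itga6, Itga7, Itga10 and Itgb1), against 8.20% of all tested genes, and all lay below for none (10.2% of all tested genes). At 24 h the arrays lay above those of 0 h for 4 members (Itga7, Itga10, Itgb2l and Itgb6, against 9.57% of all tested genes) and below for Itgb8 (11.2%). At 12 h Itga4 and Itgb2l lay above (6.79%) and none below (5.75%), and at 4 h Itga4 lay above (3.82%) and none below (5.67%). The smallest p that an exact permutation test of 1 gene can give here, 3 arrays against 3, is 0.1.

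For a group of members the arrays were ordered by replicate number. Replicate 3 was the highest of the 3 arrays at all 5 hours for 6 of 20 tested members: Itga3, Itgav, Itgb5, Lama5, Lamb1 and Lamc1 (11.2% of all tested genes). It was the lowest at all 5 hours for Lama2 (10.0% of all tested genes). For Itga3 the arrays of replicate 3 ranged from 1076 to 1492, and those of replicates 1 and 2 from 450.4 to 634, a mean log2 difference of 1.19 over the hours. For Itgb5 the ranges were 1060 to 1501 in replicate 3 and 530.3 to 771 in replicates 1 and 2, a mean log2 difference of 0.93. These ranges do not meet at any hour.

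Among the laminins, Lamb1, Lamc1 and Lama5 were highest in replicate 3 throughout, Lama2 was lowest, and Lamb2 and Lamb3 were lowest there at 3 of 5 hours. Lamc1 ranged from 647 to 1015 in replicate 3 and from 351 to 485 in replicates 1 and 2 (mean log2 difference 0.92). Lama5 ranged from 666 to 1004 in replicate 3 and from 334 to 560.4 in the others (0.77). Lama2 went the opposite way, from 153 to 212 in replicate 3 and from 255 to 638 in replicates 1 and 2 (-0.82). Over the same arrays, the mean log2 difference was 0.00 for Itga6, 0.03 for Itgb1 and -0.09 for Itga7. The summed level of the 11 muscle markers was lowest in the replicate 3 array at all 5 hours. At 48 h it was 43529 in replicate 3 and 70648 and 65428 in replicates 1 and 2. At 0 h it was 49452 in replicate 3 and 51336 and 56485 in replicates 1 and 2. The part of this sum in these differences was not tested.

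**Figure D3:**
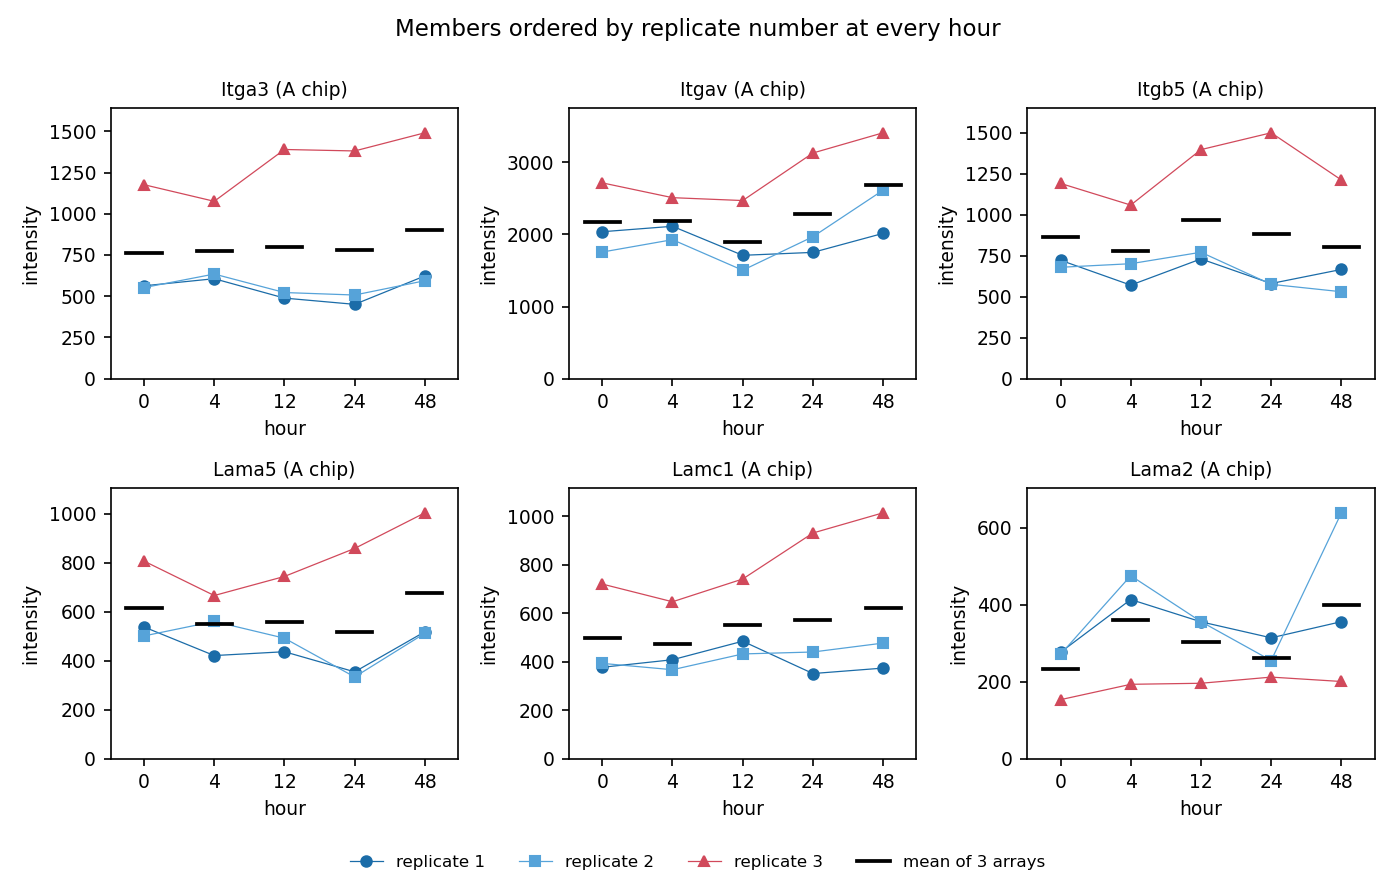
Scaled intensity (linear axis from 0) of Itga3, Itgav, Itgb5, Lama5, Lamc1 and Lama2 against hour, with 1 point per array, thin lines joining arrays of the same replicate number and black bars for the mean of the 3 arrays. Replicate 3 is the highest array at all 5 hours in the first 5 of these genes and the lowest in Lama2 (153 to 212).

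Of the 36 members, 16 were below the filter and were not tested. They comprised the alpha genes Itga1, Itga2, Itga9, Itgae, Itgal, Itgam and Itgax, the Itgb genes Itgb2, Itgb3, Itgb4, Itgb7 and Itgbl1, and the laminins Lama1, Lama3, Lama4 and Lamc3. Itgam, Itgal, Itgax and Itgb2, which form the beta2 integrins of leukocytes, were all among them. Itgam, the alpha chain of Mac-1, ranged from 3.7 to 37.6 with a median of 10.2. Itgb2, the common beta chain of the leukocyte integrins, ranged from 4 to 54.4 with a median of 9.5. On the A chip Itgal ranged from 19.6 to 129 and Itgax from 28.2 to 96.5. The B chip probe set of Itgal, also below the filter, ranged from 60.1 to 329.1. The platelet and bone chain Itgb3 stayed between 4.8 and 13.3 on the A chip. Its B chip probe set, also below the filter, ranged from 11 to 202.5. Itgb4, the hemidesmosome chain of epithelial cells, ranged from 32.2 to 143.

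Among the untested laminins, on the A chip, Lama1 stayed between 1.8 and 5.4, Lama3 between 29.3 and 88.8, and Lamc3 between 60.4 and 155. The B chip probe set of Lama3, also below the filter, ranged from 33.9 to 168.5. Lama4, the alpha chain of laminins of blood vessel walls and of developing muscle, read 42.7, 50.8 and 13.8 at 0 h, 17.7, 22.9 and 42 at 4 h, 38.1, 56.4 and 20.2 at 12 h, 12.6, 27 and 37.5 at 24 h and 62.2, 8.3 and 11.2 at 48 h. Its arrays scattered without an order by hour or by replicate. A reading below the filter gives no order between hours, and does not show that the gene is silent. Itga1 (16.1 to 103), Itga2 (35.4 to 107), Itga9 (52.3 to 128), Itgae (6.5 to 53.1), Itgb7 (13.7 to 45.6) and Itgbl1 (9.5 to 46.5) were read in the same low range. The B chip probe set of Itgae, also below the filter, ranged from 15.2 to 217.9.

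Companion genes of integrins and laminins were counted from 5 lists drawn up from textbook function. Of 26 tested cytoplasmic adaptors and kinases, 1 was called higher in the main fit at 24 h (1.58% of all tested genes) and none lower (0.940%). None was called at 48 h (1.29% higher, 0.747% lower). At each of these hours 6 passed an unadjusted p of 0.05 in limma (16.0% of all tested genes at 24 h and 14.4% at 48 h). The called gene was Itgb1bp2, which encodes melusin, a striated muscle protein that binds the beta1 tail. It read 5610.4, 6193 and 3308 at 24 h, against 1279, 1274 and 2570.3 at 0 h. All 24 h arrays lay above those of 0 h, and replicate 3 was the lowest at 24 h and the highest at 0 h. The mean was 5037 ± 1526 at 24 h and 1708 ± 747 at 0 h (SD, n = 3 each), a log2 difference of 1.57 (SE 0.34, adjusted p = 0.0235 in limma). At 48 h its log2 difference was 1.23, with an adjusted p of 0.0847 in the main fit and 0.0219 with the batch term.

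With the batch term, 3 of the 26 adaptors were higher and 4 lower at 24 h (5.30% and 6.0% of all tested genes), and 2 higher and 5 lower at 48 h (4.08% and 4.82%). The counts in replicates 1 and 2 alone were 3 higher and 5 lower at 24 h (6.01% and 7.17% of all tested genes) and 3 higher and 7 lower at 48 h (5.29% and 6.42%). In the batch fit the muscle filamin Flnc (log2 difference 0.58, adjusted p = 0.00323) and paxillin (Pxn, 0.48, adjusted p = 0.0167) joined melusin among the higher ones at 24 h. The lower ones at 24 h in the batch fit included the docking protein Bcar1 (-0.87, adjusted p = 0.009) and the non-muscle filamin Flna (-0.70, adjusted p = 0.016). The kinase Ptk2b (-0.76, adjusted p = 0.0163) and the paxillin relative Tgfb1i1 (-0.73, adjusted p = 0.0277) were the others. At 48 h Rsu1, a partner of the integrin-linked kinase complex, was among the lower ones of the batch fit (-0.60, adjusted p = 0.0139). The core linkers Tln1, Vcl, Ilk and Fermt2 were called in neither fit at 24 h or 48 h, with log2 differences between -0.24 and 0.28. The median of the list was -0.03 at 24 h and -0.08 at 48 h.

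Of 13 tested basement membrane partners of laminin, 2 were lower at 24 h in the main fit (0.940% of all tested genes). None was higher at that hour (1.58%). At 48 h 1 was lower (0.747%) and none higher (1.29%). The unadjusted threshold used for the adaptors was passed in limma by 2 at 24 h (16.0% of all tested genes). It was passed by 4 at 48 h (14.4%). Fbln1, a matrix glycoprotein, averaged 319 ± 14.3 at 24 h and 679.7 ± 119 at 0 h (SD, n = 3 each), a log2 difference of -1.01 (adjusted p = 0.00636 in limma). Ntn1, a laminin-related guidance protein, averaged 226 ± 39.5 at 48 h and 546 ± 75.3 at 0 h (SD, n = 3 each), a log2 difference of -1.17 (adjusted p = 0.0121 in limma). At 24 h Ntn1 was likewise lower (-1.01, adjusted p = 0.0195). With the batch term none was higher and 2 were lower at 24 h (5.30% and 6.0% of all tested genes). At 48 h 2 were higher and 2 lower in that fit (4.08% and 4.82%). There Nid2, which links laminin to collagen IV, was higher (0.69, adjusted p = 0.0112), as was Fbln2 (1.12, adjusted p = 0.0337). Fbln1 (-0.53, adjusted p = 0.0274) and Ntn1 were lower. In replicates 1 and 2 alone, Fbln1 and Fbln2 were not called at 48 h (adjusted p = 0.0565 and 0.0561). Nid1 and Nid2 were higher in that fit (5.29% of all tested genes) and Col4a1, Ntn1 and Sparc lower (6.42%). The median of the list was -0.09 at 24 h and 0.04 at 48 h.

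None of 11 tested non-integrin laminin receptors was called in the main limma fit at 24 h or 48 h, where 5 and 3 passed an unadjusted p of 0.05 (16.0% and 14.4% of all tested genes). With the batch term 1 was higher and 4 were lower at 24 h (5.30% and 6.0% of all tested genes), and 1 was higher and 1 lower at 48 h (4.08% and 4.82%). Dystroglycan (Dag1), the laminin receptor of the dystrophin complex, was higher at 24 h (0.49, adjusted p = 0.0113), and dystrophin itself (Dmd) was higher at 48 h (1.41, adjusted p = 0.0189). All 4 syndecans, which are heparan sulphate proteoglycans, were lower at 24 h in that fit, with log2 differences of -0.34 for Sdc1, -0.66 for Sdc2, -0.90 for Sdc3 and -0.64 for Sdc4 and adjusted p from 0.00471 to 0.0453. In replicates 1 and 2 alone, Dag1 and Dmd were called higher and Sdc2 and Sdc3 lower at 24 h (6.01% and 7.17% of all tested genes). Sdc1 and Sdc4 were not called there. At 48 h that fit called Dmd higher and Sdc2 lower (5.29% and 6.42% of all tested genes).

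None of 12 tested further matrix ligands and none of 12 integrin-associated membrane proteins was called in the main limma fit at 24 h or 48 h. An unadjusted p of 0.05 was passed by 3 at 24 h and 2 at 48 h in each list (16.0% and 14.4% of all tested genes). With the batch term, 3 ligands were lower and none higher at 24 h (6.0% and 5.30% of all tested genes): the matricellular protein Ccn1 (-0.81, adjusted p = 0.015), Mfge8, a ligand of alphav integrins (-0.70, adjusted p = 0.00291), and Vcam1 (-0.70, adjusted p = 0.0272). Of the 12 ligands, 7 were lower at 24 h (7.17% of all tested genes) and 1 higher (6.01%) in replicates 1 and 2 alone, and at 48 h 3 were lower and 2 higher (6.42% and 5.29%). With the batch term 2 ligands were higher and 1 lower at 48 h (4.08% and 4.82% of all tested genes). Npnt, the ligand of alpha8 beta1, was higher in the batch fit (0.46, adjusted p = 0.0452), as was the collagen chain Col1a2 (0.80, adjusted p = 0.00367). Ccn1 was lower (-0.69, adjusted p = 0.0426). Fibronectin (Fn1) had a log2 difference of 0.45 at 48 h and was called in neither fit. Of the membrane proteins, 2 were higher and 1 lower at 24 h in the batch fit (5.30% and 6.0% of all tested genes). At 48 h 1 was higher and 1 lower (4.08% and 4.82%). In that fit Cd47 was lower at 24 h (-0.55, adjusted p = 0.00311) and Adam9 higher (0.58, adjusted p = 0.0321). Cav1, the caveolin of the cell membrane, was higher at both hours (adjusted p = 0.0353 and 0.000429), and Cd82, a tetraspanin, was lower at 48 h (-0.65, adjusted p = 0.0013). With replicates 1 and 2 alone the 24 h calls of Cav1 (adjusted p = 0.0953 in limma) and Adam9 (0.0579) were lost. There Bsg was called higher (0.0324) and Cd47 lower at 24 h (6.01% and 7.17% of all tested genes). Cav1 was called higher and Cd82 lower at 48 h (5.29% and 6.42% of all tested genes).

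**Figure D4:**
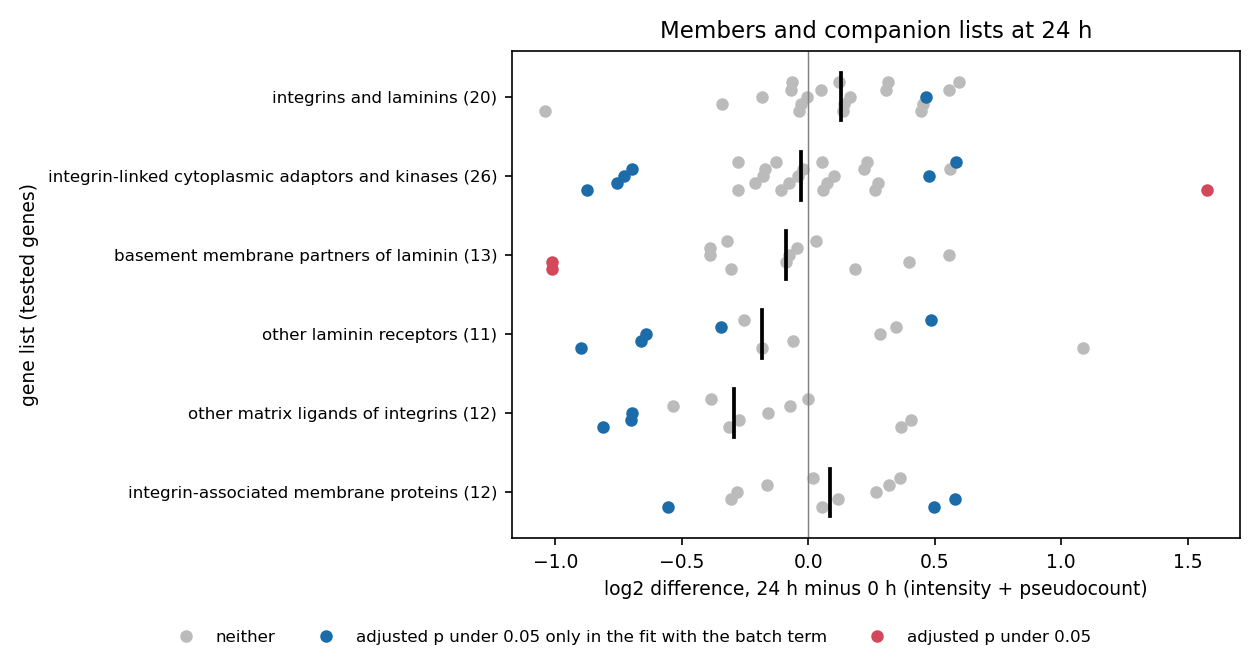
Log2 difference at 24 h from 0 h, in the main limma fit, of the tested integrins and laminins and of the 5 companion lists, with 1 point per gene (stacked for legibility) and a black bar at each list's median. Colours show the genes called in the main fit and those called only with replicate 3 as a batch term. Itgb1bp2 stands at 1.57, Fbln1 and Ntn1 stand at -1.01, and the list medians lie between -0.29 and 0.13.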

How the data were processed

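The authors deposited an intensity for each probe set of each array, on a linear scale and, per the labels, from the standard protocol of the manufacturer. Neither software nor genome build is given in the sources used here. The trimmed mean of the deposited intensities (2% trimmed) was 500.1 to 500.2 on every array, so no further scaling was applied. The number of arrays limits the precision.

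Probe sets were named through the platform annotation, and 64 control probe sets per chip were left out. After log2(intensity + pseudocount), the pseudocount being the 20th percentile of each chip, the upper 60% of probe sets were tested (13576 on A, 13507 on B). Each chip was fitted in limma 3.58.1 (R 4.3.3; lmFit, contrasts.fit, and eBayes with a trend) with hour as the factor, two-sided. In simulated data, the main fit of 48 h against 0 h recovered 60 of 100 probe sets changed 2-fold and 93 of 100 changed 4-fold on A, and 40 of 100 and 81 of 100 on B.

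The members and lists were chosen with earlier results of these data known. Values in every array are given for members called in any comparison without or with a replicate block and for 13 members listed by name whatever their test. Itga3 and Itgb8 fall under neither reason, and their arrays were added outside that plan. Companion genes are named where called, at most 4 per list and direction, with the batch term in place of the block. Protein sequences were not analysed here.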

Additional observations from a re-analysis of the deposited data

How the results depend on the processing

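At 4 h and 12 h the count of called members was 0 under all 14 alternatives and without each of the 15 arrays. At 24 h, where the main count was 0, it was 1 under median centring, 1 with probe sets averaged per gene, 1 with replicate 3 as a batch term, 2 with array quality weights and 3 with replicates 1 and 2 alone. Leaving out each array gave 0 to 1, the 1 being Itga7 without replicate 3 of 24 h. At 48 h, where the main count was 1, it was 2 under quantile normalisation, 2 with array quality weights, 2 with replicates 1 and 2 alone, 3 with the batch term and 0 with only the arrays of the hours compared. With no filter it was 0, since Itga4 is then read from its dim A chip probe set. Leaving out each array gave 0 to 2, with 0 without replicate 1 or 2 of either 0 h or 48 h and 2 without replicate 3 of 0 h. In the F test the count was 0, with 4 under the batch term, 5 with array quality weights, 5 with replicates 1 and 2 alone, 1 with probe sets averaged per gene, and 0 to 1 without each array (1 without replicate 3 of 24 h). The cause of these shifts, apart from the filter and the smaller sets of arrays, was not tested. The 4 gene changes rerun under the alternatives (Itga4, Itga6 and Lamb1 at 48 h, Itga7 at 24 h) kept their direction. Of other members with estimates near 0, Itga5 and Lama5 at 48 h and Itgav at 24 h had estimates of 0.08, 0.10 and 0.05 in the main fit and of -0.15, -0.01 and -0.03 in replicates 1 and 2 alone. The log2 difference of Itga4 at 48 h was 1.26 to 1.75 over 15 alternatives, 14 of which called it. The replicate numbers were not taken as pairs, because 1 of 30 same-numbered correlations on A and 7 of 30 on B were at or under 0.1, although 11 of 15 arrays on A and 9 of 15 on B correlated best with their own number. With a replicate block the counts were 1 at 24 h, 2 at 48 h (without Lamb1, adjusted p = 0.0599) and 3 in the F test.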

Other observations

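Among the companion genes, the wide split by replicate number seen in Itga3 and Lamc1 was wider still in Nid1, which encodes nidogen 1, a basement membrane protein that binds the laminin gamma1 chain. In replicates 1, 2 and 3 its intensity was 188, 182 and 20.5 at 0 h, 234, 249 and 22.6 at 4 h, 278, 276 and 1.6 at 12 h, 241, 191 and 2.6 at 24 h and 306, 309 and 2.2 at 48 h. Every array of replicate 3 was below every array of the other replicates, at a level close to the bottom of the scale, while Nid2 ranged from 636 to 1540.2 over all arrays. Nid1 was named after its values were seen. Of 74 tested companion genes, replicate 3 was the highest array at all 5 hours for 17 (23.0%, against 11.2% of all tested genes) and the lowest for 9 (12.2%, against 10.0%). Fn1, Vcam1, Col1a2, Cav1 and Cd9 were among the higher ones, and Ilk, Flnc, Pxn and the sarcoglycans Sgca and Sgcb among the lower ones.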
